A study of Mus musculus with 8 samples.

Results

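The genes of blood clotting and clot removal were followed in mouse liver. They comprised 37 listed genes: the 3 fibrinogen chains, the clotting factors, the contact system, the inhibitors that restrain clotting, and the plasminogen system that dissolves clots. Each of the 37 symbols matched a single row among the 56884 genes of each count table, and 32 of the 37 passed the filter on low counts and were among the 12412 genes tested. The genes were listed by name and function, with earlier results of these data known.

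The liver makes most clotting proteins of the plasma. Hepatocytes secrete fibrinogen, prothrombin and most other factors, whereas the lining of blood vessels supplies von Willebrand factor, factor VIII, thrombomodulin and tissue-type plasminogen activator. Clotting starts when tissue factor meets factor VII, or when the contact system is activated on a surface. Both routes meet at factor X, thrombin is then formed from prothrombin, and thrombin turns fibrinogen into fibrin. Fibrin is later cut by plasmin. Fibrinogen is also a classical acute-phase protein, whose genes respond to interleukin-6 through STAT and C/EBP factors.

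The livers came from female C57BL/6J mice sacrificed at 18 months of age after an overnight fast. All of them ate, from 2 months of age, a saturated high-fat diet in which lipids gave 45%, protein 20% and carbohydrates 35% of the energy. After 4 months on it the DIO group (diet-induced obese, n = 3) stayed on this diet, while in the DIO+DHA group (n = 5) 15% of the dietary lipids were replaced by a fish-oil concentrate holding 683.4 mg docosahexaenoic acid (DHA), 46.7 mg eicosapentaenoic acid and 838.9 mg n-3 fatty acids in all per g. The diet of the DIO group received the same tocopherol mix as the concentrate. No lean group was analysed here, so each difference is between 2 groups of obese aged females. The sample titles name no batch, and all 8 libraries were treated as a single batch.

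Each library came from a single mouse and held between 1723800 and 5690347 counts, with a median of 4495644. The shallowest library was DIO replicate 1. Skeletal muscle transcripts separated the groups: all 20 muscle markers were higher in DIO+DHA livers, 8 of them having passed the filter through that group alone, with a summed level of 45.4 to 52.3 CPM (counts scaled to a common library size) in DIO and 1533 to 1660 CPM in DIO+DHA libraries. Stratified epithelium markers summed to 193 to 208 CPM in DIO and 306 to 342 CPM in DIO+DHA. Nearly all of the DIO sum came from Perp (152 to 166 CPM) and Ly6d (39.1 to 44.4 CPM). In DIO+DHA Perp and Ly6d read 182 to 199 and 46.2 to 55.5 CPM. Krt4 read 0 to 0.18 CPM in DIO and 20.8 to 28.4 CPM in DIO+DHA, and Krtdap 0.532 to 0.563 against 24.5 to 31.8 CPM. Of the 18 genes, 13, among them Krt5, Krt14 and Trp63, were at 0 counts in every DIO library. Of these 13, Krt16 and Krt17 were also at 0 in every DIO+DHA library. Of the 9 epithelium markers tested, all higher, 6 passed the filter through the DIO+DHA group alone. With TMM factors computed without the listed muscle and epithelium markers, 10 clotting genes passed the test, all lower in DIO+DHA. The markers were few of the tested genes and library sizes were unchanged, so this fit could hardly differ. It does not show how the other tissues affect the values. Macrophage and Kupffer cell markers summed to 870 to 974 CPM in DIO and 502 to 537 CPM in DIO+DHA, with 10 of 12 lower and 1 higher. Hepatocyte markers summed to 115564 to 121641 CPM in DIO and 129311 to 142271 CPM in DIO+DHA, with 3 of 9 higher (Apoa1, Apoa2 and Ahsg) and none lower. The median log2 fold change of the 9 was 0.12, and the rise was not shared by all, with Ttr at -0.02 and Ass1 at -0.13. In whole liver, fewer cells of a type and less RNA per cell cannot be told apart.

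Of the 32 clotting genes tested, 10 were lower in DIO+DHA livers at an adjusted p under 0.05 (edgeR's quasi-likelihood test, Benjamini-Hochberg over all 12412 genes), none was higher and 22 did not pass. The 10 were the fibrinogen chains Fga, Fgb and Fgg, the factors F7 and F5, the inhibitors Serpina10, Serpind1 and Serping1, and Cpb2 and Vtn. They made up 31.2% of the tested members, where 7.28% of all tested genes were lower and 7.89% higher. Because the list was made with earlier results of these data known, such shares only describe it. At an unadjusted p under 0.05, 16 members were lower and 2, F3 and Serpinc1, were higher. Such p-values were common over all genes: a gene at an unadjusted edgeR p of 0.048 ranked 3094 of 12412, both directions counted. Neither limma-voom nor DESeq2 called any member higher at an adjusted p under 0.05. The median log2 fold change of the 32 was -0.20, against 0.0011 over all tested genes, with 24 negative and 8 positive values.

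Clotting genes are abundant in liver, and abundant genes pass a test more easily. Among the 24 members with a mean of at least 100 CPM, 10 (41.7%) were lower and none higher, while of all 1210 tested genes at that level 16.8% were lower and 21.8% higher. The median log2 fold change at that level was -0.17 for the members and 0.06 for all genes. The groups did not overlap in 13 members: 11 lay lower in all DIO+DHA libraries (34.4%, with 8.88% of all tested genes) and 2, F9 and the low-count gene F3, lay higher (6.25%, with 9.54% of all tested genes). Summed over all 37 genes, the level was 35551 to 37831 CPM in DIO and 29234 to 30274 CPM in DIO+DHA libraries.

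**Figure D1:**
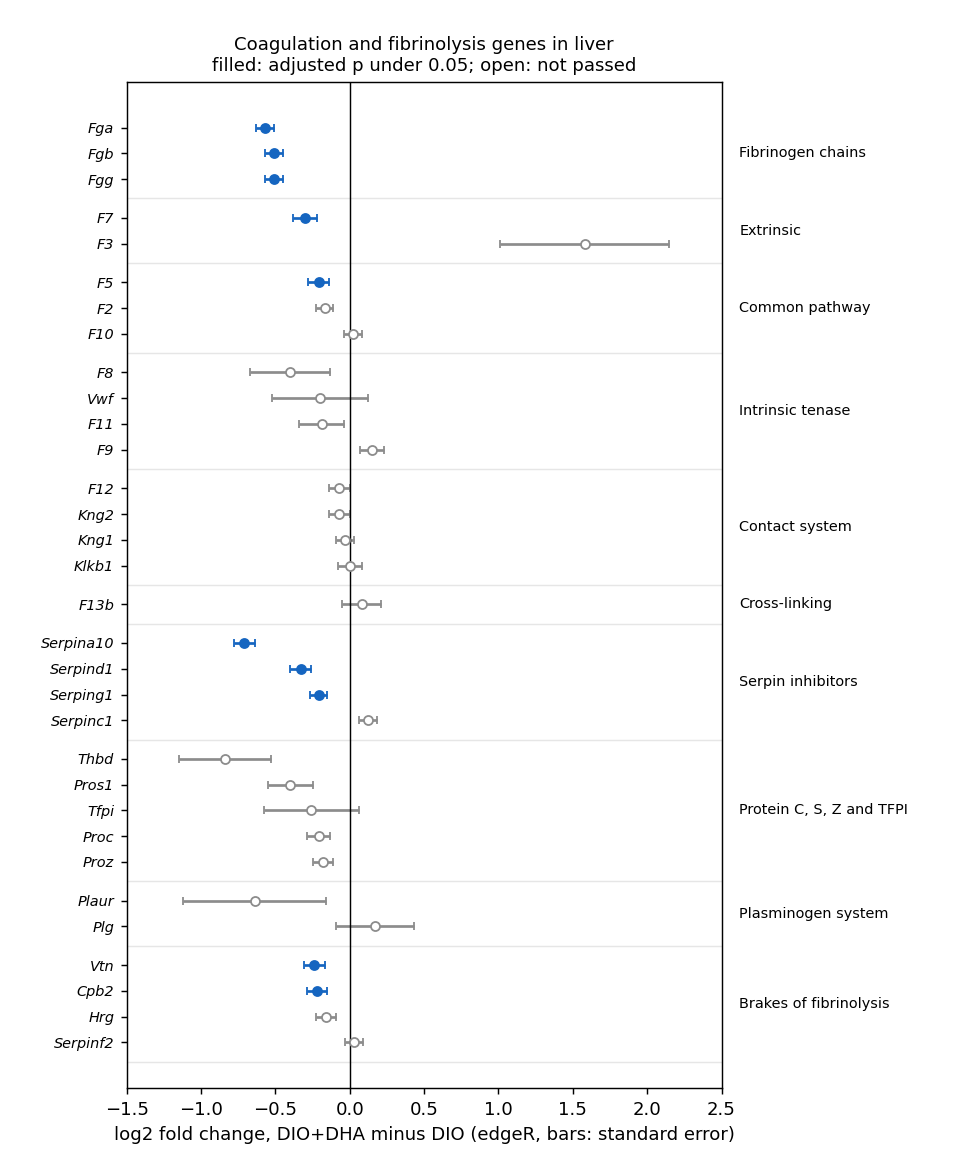
Log2 fold change of DIO+DHA (n = 5) against DIO (n = 3) for the 32 tested members, with standard errors as bars, where filled points passed the test and open points did not. The 10 filled points are all below 0 and reach from -0.21 for F5 and Serping1 down to -0.71 for Serpina10.

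Fibrinogen held the largest part of this summed difference. Its 3 chains, Fga, Fgb and Fgg, are assembled in the hepatocyte into the protein that thrombin converts to fibrin, and all 3 were lower in DIO+DHA livers by close to 30%. The genes lie side by side on chromosome 3 of GRCm39, Fgg at chr3:82915031-82922356 and Fga at chr3:82933383-82940934 on the plus strand, and Fgb at chr3:82947448-82957170 on the minus strand. Fga (ENSMUSG00000028001.17) stood at 3963, 4098 and 4225 CPM in the DIO libraries and at 2888, 2639, 2813, 2658 and 2806 CPM in the DIO+DHA libraries. Every DIO+DHA value was below every DIO value. The DIO mean was 4095 ± 131 CPM (SD, n = 3) and the DIO+DHA mean 2761 ± 107 CPM (SD, n = 5), and the log2 fold change was -0.57 (SE 0.06, edgeR adjusted p = 1.0e-11).

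Fgb (ENSMUSG00000033831.6) read 8766, 9704 and 8749 CPM in DIO and 6504, 6776, 6152, 6615 and 5838 CPM in DIO+DHA, again without overlap. Its log2 fold change was -0.51 (SE 0.06, edgeR adjusted p = 4.4e-10). Fgg (ENSMUSG00000033860.14) read 5720, 5575 and 6118 CPM in DIO against 3936, 4074, 4339, 4050 and 4045 CPM in DIO+DHA, with a log2 fold change of -0.51 (SE 0.06, edgeR adjusted p = 3.2e-10). On the linear scale Fga was 32.6% lower, Fgb 29.7% lower and Fgg 29.6% lower.

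The sum of the chains was 18973 ± 476 CPM in DIO (SD, n = 3) and 13227 ± 310 CPM in DIO+DHA (SD, n = 5), while no difference in their proportions was detected. In percent of normalised counts the sum was 1.84, 1.94 and 1.91 in DIO libraries and 1.33, 1.35, 1.33, 1.33 and 1.27 in DIO+DHA libraries. Fga made up 21.6% ± 0.499 of the summed fibrinogen counts in DIO and 20.9% ± 1.09 in DIO+DHA (SD, n = 3 and 5, exact two-sided permutation p = 0.321). The share of Fgb was 47.8% ± 2.14 and 48.2% ± 1.95 (exact permutation p = 0.839), and that of Fgg 30.6% ± 1.67 and 30.9% ± 1.27 (exact permutation p = 0.839). These are shares of counts and do not order the chains by number of molecules.

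**Figure D2:**
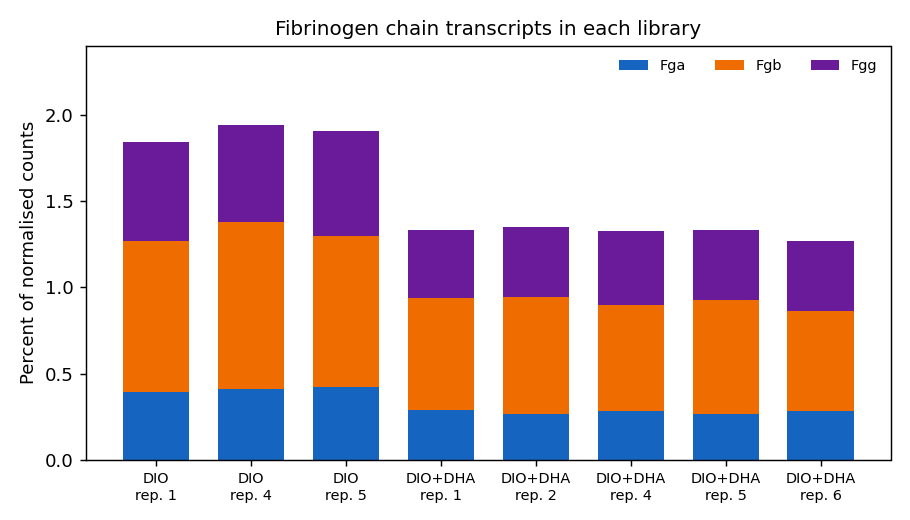
Stacked bars of Fga, Fgb and Fgg transcripts in percent of normalised counts for each of the 8 libraries, starting at 0. The 3 DIO bars reach 1.84 to 1.94% and the 5 DIO+DHA bars 1.27 to 1.35%, with the 3 layers in like proportion.

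Because the 3 neighbouring genes moved together, the 250 bases upstream of each start (the most 5′ exon in GENCODE M33, read from the GRCm39 genome) are shown here from 5′ to 3′. Capitals mark matches, on either strand, to a STAT motif (TTCNNNGAA), an IL-6 response motif (CTGGGAA) or a C/EBP motif (TTGCNNAA). The windows are chr3:82933133-82933382, plus strand, for Fga, chr3:82957171-82957420, minus strand, for Fgb, and chr3:82914781-82915030, plus strand, for Fgg.
Fga: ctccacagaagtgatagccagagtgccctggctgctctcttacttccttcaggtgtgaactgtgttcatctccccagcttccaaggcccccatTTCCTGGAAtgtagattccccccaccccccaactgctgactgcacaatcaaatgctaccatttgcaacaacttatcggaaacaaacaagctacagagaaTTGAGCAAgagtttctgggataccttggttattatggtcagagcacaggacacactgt
Fgb: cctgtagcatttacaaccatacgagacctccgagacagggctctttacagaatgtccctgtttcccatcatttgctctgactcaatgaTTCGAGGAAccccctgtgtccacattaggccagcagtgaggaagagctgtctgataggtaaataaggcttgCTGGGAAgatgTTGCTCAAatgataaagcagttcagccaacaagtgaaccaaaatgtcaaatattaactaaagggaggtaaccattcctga
Fgg: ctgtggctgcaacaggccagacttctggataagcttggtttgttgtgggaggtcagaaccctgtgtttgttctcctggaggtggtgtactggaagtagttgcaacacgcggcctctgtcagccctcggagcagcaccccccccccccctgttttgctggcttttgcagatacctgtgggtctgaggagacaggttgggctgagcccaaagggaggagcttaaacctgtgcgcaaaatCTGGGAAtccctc

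Fga held a STAT match at 157 to 149 bases before the start and a C/EBP match on the opposite strand at 58 to 51. Fgb held a STAT match at 162 to 154, an IL-6 response match at 91 to 85 and a C/EBP match at 80 to 73. Fgg held an IL-6 response match at 13 to 7 bases before its start. Over the windows of all 12412 tested genes, 6.3% held the STAT letters, 9.6% the IL-6 response letters and 8.45% the C/EBP letters. Of the 32 member windows, 8 held the STAT, 5 the IL-6 response and 7 the C/EBP letters, and of the 10 lower members 3, 3 and 2. The matches were not particular to the lower genes: F9, whose log2 fold change was positive, held all 3 of these motifs, and Kng1 and Kng2, with values near 0, held the STAT letters. The letters of the hepatocyte factors HNF1 (GTTAATNAT) occurred in 0.725% of all windows and in those of F13b and Plg, and those of HNF4 (CAAAGNNCA) in 5.03% and in F7, F9 and Serpinc1. The TATA letters TATAAA occurred in 7.71% of all windows and in those of Klkb1, Tfpi and Vtn. The letters of the STAT and IL-6 response motifs can overlap, and a match is a description of the sequence, not a measured binding site.

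Tissue factor, the receptor that starts the extrinsic pathway, is normally kept away from blood, and its gene F3 was barely detected, with 1, 4 and 2 counts in DIO and 10, 5, 4, 8 and 6 counts in DIO+DHA. As CPM these were 0.563, 0.721 and 0.355 against 1.98, 1.68, 1.43, 1.87 and 1.31, so the groups did not overlap. The log2 fold change was 1.58 (SE 0.57), with an edgeR adjusted p of 0.0507 and an unadjusted p of 0.0078, so F3 missed the threshold. F3 passed the filter on low counts through the DIO+DHA group alone, the group where it is high, so it was tested only because of its values there. Its fold change, p and lack of overlap are therefore no independent evidence of a difference. Without the filter its log2 fold change was 1.57 (edgeR adjusted p = 0.116). The DIO+DHA libraries also held more muscle and stratified epithelium transcripts than the DIO libraries, and their part in the F3 counts was not tested.

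F7 encodes the factor that tissue factor binds, and it was lower in every DIO+DHA library. It read 161, 157 and 157 CPM in DIO and 120, 127, 128, 133 and 134 CPM in DIO+DHA. The DIO mean was 158 ± 2.17 CPM (SD, n = 3) and the DIO+DHA mean, 128 ± 5.68 CPM (SD, n = 5), was 19% lower, with a log2 fold change of -0.30 (SE 0.08, edgeR adjusted p = 0.0027). The neighbours of F7 on chromosome 8, F10 at chr8:13087308-13106676 and Proz at chr8:13110914-13126026, did not pass the test.

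In the common pathway, where both routes meet, 1 of 3 genes passed. F5, the cofactor that speeds up thrombin formation, read 272, 243 and 258 CPM in DIO and 209, 236, 211, 247 and 206 CPM in DIO+DHA. The highest DIO+DHA library lay above the lowest DIO library, so the groups overlapped. The log2 fold change was -0.21 (SE 0.07, edgeR adjusted p = 0.0412), and the call was lost in 10 of 18 alternatives.

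F2 encodes prothrombin. It read 2363, 2416 and 2661 CPM in DIO and 2205, 2104, 2314, 2232 and 2196 CPM in DIO+DHA without overlap, a log2 fold change of -0.17 (SE 0.06) whose edgeR adjusted p of 0.0502 lay just beyond the threshold. F10, the enzyme that cleaves prothrombin, read 587 to 641 CPM in DIO and 600 to 647 CPM in DIO+DHA, with a log2 fold change of 0.02 (SE 0.06, edgeR adjusted p = 0.885).

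None of the 4 genes of the intrinsic pathway passed. F9, the X-linked protease lacking in haemophilia B, read 102, 110 and 102 CPM in DIO and 112, 120, 118, 110 and 123 CPM in DIO+DHA, with a log2 fold change of 0.15 (SE 0.08, edgeR adjusted p = 0.238). The lowest DIO+DHA value was only just above the highest DIO value. F11, which activates F9, averaged 21.5 ± 3.64 CPM in DIO and 17.8 ± 3.43 CPM in DIO+DHA (log2 fold change -0.19, edgeR adjusted p = 0.473). F8, the cofactor of F9, and Vwf, which carries factor VIII in plasma, are products of endothelial cells and were low in these livers. F8 read 5.23 to 7.31 CPM in DIO and 2.78 to 5.71 CPM in DIO+DHA (log2 fold change -0.40, SE 0.27), and Vwf 2.84 to 3.97 CPM against 1.43 to 4.02 CPM (log2 fold change -0.20, SE 0.32). Endothelial markers summed to 259 to 281 CPM in DIO and 202 to 243 CPM in DIO+DHA, with 2 of 12 lower. These 2 were Clec4g (log2 fold change -0.59) and Lyve1 (log2 fold change -1.08). Clec4g read 62 to 79.9 CPM in DIO and 43.1 to 54.2 CPM in DIO+DHA, and Lyve1 23.2 to 27.6 against 6.78 to 15.1 CPM. The median log2 fold change of the 12 was -0.06. Among those that did not pass, Pecam1, Cdh5, Kdr, Eng, Emcn and Egfl7 had positive values. Stab2, Fcgr2b, Tek and Ptprb had negative values.

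The contact system was the flattest group, with 4 log2 fold changes between -0.07 and 0.00. Its summed level was 3576 to 3913 CPM in DIO and 3527 to 3716 CPM in DIO+DHA. F12, the factor that starts the contact reaction, averaged 572 ± 39.1 CPM in DIO and 546 ± 24.5 CPM in DIO+DHA (log2 fold change -0.07, SE 0.07). Klkb1, which encodes plasma prekallikrein, averaged 151 ± 12.4 and 150 ± 8.14 CPM, a log2 fold change of 0.00 (SE 0.08). Kng1, the kininogen gene from which bradykinin is released, averaged 2677 ± 110 and 2615 ± 70.2 CPM (log2 fold change -0.03, SE 0.06), and its paralog Kng2 328 ± 17.0 and 313 ± 15.9 CPM (log2 fold change -0.07, SE 0.07). Reads that fit both kininogen genes could have been lost or split in counting, so their separate levels are uncertain. Of the exon bases of Klkb1, 43.2% are shared with the same-strand gene Gm45753, which had 0 counts in all libraries.

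Fibrin is cross-linked by factor XIII, whose carrier subunit F13b read 109, 124 and 85.7 CPM in DIO and 116, 129, 102, 125 and 88.7 CPM in DIO+DHA (log2 fold change 0.08, SE 0.13, edgeR adjusted p = 0.794). Its catalytic subunit F13a1, a product of macrophages and megakaryocytes, had 1, 2 and 2 counts in DIO and 2, 0, 2, 1 and 3 counts in DIO+DHA and was not tested. Platelet and megakaryocyte markers were low as well, at 37.1 to 52.9 CPM in sum in DIO and 22.1 to 31.0 CPM in DIO+DHA, with Itgb3 and Clec1b lower. Most of this sum was Clec1b (26.4 to 34.3 CPM in DIO and 11.7 to 21.6 CPM in DIO+DHA), which Kupffer cells also express. Tubb1 was at 0 in all libraries, and Gp1ba, Gp1bb, Gp9, Gp5 and Gp6 had 0 to 3 counts in each.

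Among the members that passed the test, the largest fall was that of a serpin inhibitor. Serpina10 encodes the protein Z-dependent inhibitor, which shuts off factor Xa. It lies at chr12:103581045-103597703 on the minus strand and read 241, 273 and 273 CPM in DIO and 162, 151, 163, 153 and 174 CPM in DIO+DHA. The groups were far apart. The DIO mean was 263 ± 18.4 CPM (SD, n = 3) and the DIO+DHA mean, 161 ± 9.26 CPM (SD, n = 5), was 39.1% lower, with a log2 fold change of -0.71 (SE 0.07, edgeR adjusted p = 1.3e-11). Proz, the cofactor that Serpina10 works with, read 195, 201 and 210 CPM against 180, 182, 182, 176 and 176 CPM, with no overlap but an edgeR adjusted p of 0.0848 (log2 fold change -0.18, SE 0.07).

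Serpind1 encodes heparin cofactor II, an inhibitor of thrombin. It read 230, 232 and 256 CPM in DIO and 196, 192, 201, 178 and 187 CPM in DIO+DHA without overlap, 20.6% lower, with a log2 fold change of -0.33 (SE 0.07, edgeR adjusted p = 4.5e-04). Serping1, the C1 inhibitor that restrains complement and the contact system, read 938, 994 and 931 CPM against 816, 850, 795, 829 and 825 CPM. It was 13.8% lower, with a log2 fold change of -0.21 (SE 0.06, edgeR adjusted p = 0.0107). Both genes were below their DIO range in every DIO+DHA mouse.

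Serpinc1, the gene of antithrombin, which is the main inhibitor of thrombin and factor Xa, stood on the other side. It read 2660, 2595 and 2836 CPM in DIO and 3043, 2897, 2943, 2770 and 3044 CPM in DIO+DHA, a log2 fold change of 0.12 (SE 0.06) that did not pass (edgeR adjusted p = 0.177). The last 500 exon bases of Serpinc1 lie within the antisense gene Zbtb37, so its counts are uncertain where the counting ignored strand. Serpina5, the protein C inhibitor, had 0 counts in every DIO library, which allows a level of up to 0.232 CPM over the 12938619 counts of that group, and 1 count in a single DIO+DHA library. The limit covers counting error only.

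The protein C system and its relatives switch off the cofactors of clotting, and its 5 tested genes all had negative log2 fold changes, with a median of -0.26, although none passed. Proc, the gene of protein C, read 1154, 1232 and 1553 CPM in DIO and 1150, 1056, 1254, 1177 and 1063 CPM in DIO+DHA (log2 fold change -0.21, SE 0.08, edgeR adjusted p = 0.0608). Pros1, its cofactor protein S, read 25.9, 25.8 and 19.3 CPM against 16.9, 14.4, 21.8, 16.4 and 19 CPM (log2 fold change -0.40, SE 0.15, edgeR adjusted p = 0.0594). In both genes the groups overlapped. Thbd, the endothelial thrombin receptor thrombomodulin, had 8, 17 and 37 counts in DIO and 14, 8, 9, 9 and 12 counts in DIO+DHA (log2 fold change -0.84, SE 0.31, edgeR adjusted p = 0.056). Tfpi, the inhibitor of the tissue factor complex, averaged 3.13 ± 0.832 CPM in DIO and 2.77 ± 0.521 CPM in DIO+DHA (log2 fold change -0.26, SE 0.32). DIO replicate 5 was the highest DIO library in Proc, Thbd and Tfpi. Without it their log2 fold changes were -0.06, -0.38 and -0.08, and those of Pros1 and Proz -0.54 and -0.14. Procr, the protein C receptor, had 3, 9 and 4 counts against 2, 1, 2, 3 and 3 counts and was not tested.

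**Figure D3:**
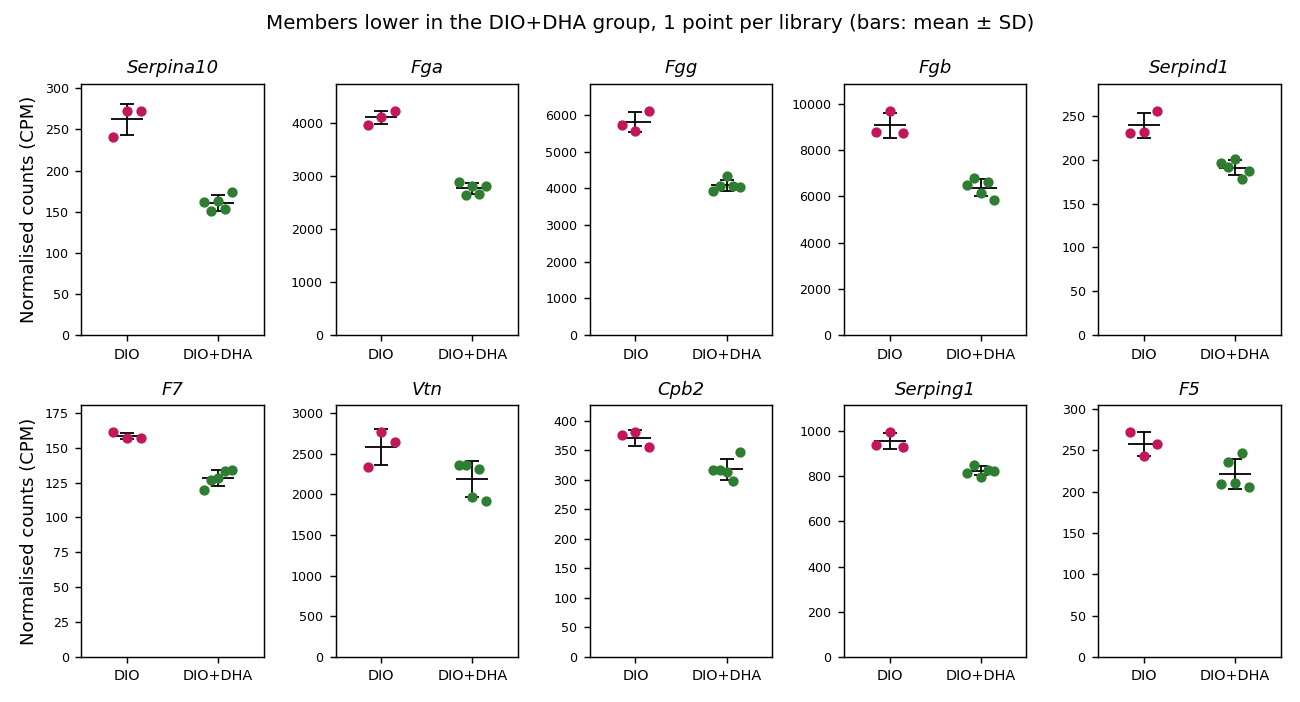
Normalised counts (CPM) of the 10 members that passed the test, 1 point per library, with bars for the mean ± SD of DIO (n = 3) and DIO+DHA (n = 5) and axes starting at 0. In 8 of the 10 panels every DIO+DHA point lies below every DIO point, while in F5 and Vtn the groups overlap.

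Plasmin dissolves fibrin, and its precursor is made in the liver from Plg. Plg read 166, 154 and 107 CPM in DIO and 172, 172, 164, 184 and 95.0 CPM in DIO+DHA (log2 fold change 0.17, SE 0.26, edgeR adjusted p = 0.779). In each group 1 library lay well below the others. Of its last 500 exon bases, 84.0% overlap the antisense gene Slc22a3. The activators of plasminogen were hardly detected: Plat had 0, 1 and 2 counts in DIO and 2, 0, 0, 2 and 1 in DIO+DHA, and Plau 0, 0 and 3 against 2, 1, 1, 1 and 2. Plaur, the urokinase receptor, had 0, 16 and 11 counts in DIO and 4, 4, 7, 6 and 4 counts in DIO+DHA (log2 fold change -0.64, SE 0.48, edgeR adjusted p = 0.436), and it passed the filter through the DIO group alone.

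Of the 4 genes that slow fibrinolysis or carry its proteins, 2 were lower. Cpb2 encodes the carboxypeptidase that protects fibrin from plasmin. It read 376, 380 and 355 CPM in DIO and 317, 316, 313, 297 and 346 CPM in DIO+DHA without overlap, 14.0% lower, with a log2 fold change of -0.22 (SE 0.07, edgeR adjusted p = 0.0205). Vtn encodes vitronectin, the plasma protein that stabilises plasminogen activator inhibitor 1. It read 2333, 2761 and 2644 CPM against 2363, 2361, 1971, 2315 and 1914 CPM, 15.4% lower, with a log2 fold change of -0.24 (SE 0.07, edgeR adjusted p = 0.0118) and an overlap through DIO replicate 1. The call was lost in 5 of 18 alternatives for Cpb2 and in 4 for Vtn. Hrg, which binds plasminogen and heparin, read 474, 481 and 489 CPM against 415, 441, 441, 408 and 455 CPM, lower in every DIO+DHA library but not past the test (log2 fold change -0.16, SE 0.07, edgeR adjusted p = 0.107). Serpinf2, the main plasmin inhibitor, averaged 1147 ± 58.1 CPM in DIO and 1176 ± 28.8 CPM in DIO+DHA (log2 fold change 0.03, SE 0.06).

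**Figure D4:**
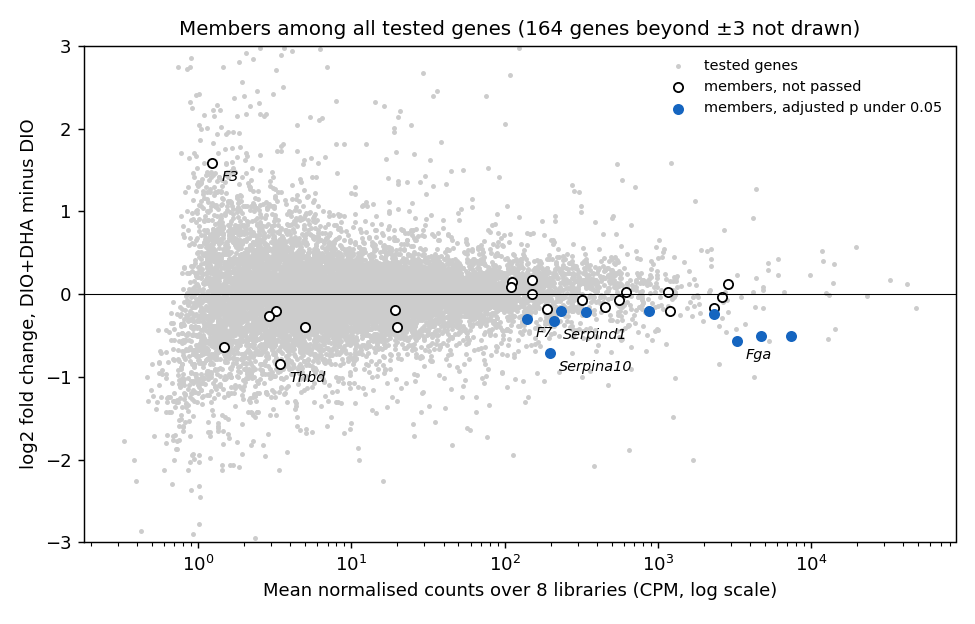
Log2 fold change of DIO+DHA against DIO plotted over the mean normalised count (CPM, log axis) for all tested genes in grey and the members on top, filled where the test was passed, while 164 genes beyond a log2 fold change of 3 in either direction are not drawn. The 10 filled members all lie below 0 and have a mean of at least 100 CPM.

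Other genes of the pathway were called at close to the share of all genes. Of 31 listed genes for vitamin K use, factor export, clearance, receptors and further inhibitors, 23 were tested, of which 2 (8.7%) were lower and 2 (8.7%) higher, beside 7.28% and 7.89% of all tested genes. Their log2 fold changes had a median of -0.04. Gas6, a vitamin K-dependent ligand related to protein S, read 73.1, 68.0 and 63.9 CPM in DIO and 32.5, 31.5, 31.4, 32.8 and 24.2 CPM in DIO+DHA. It fell by 1.15 on the log2 scale (SE 0.11, edgeR adjusted p = 2.8e-13). Lrp1, a clearance receptor that takes up factor VIII and protease-inhibitor complexes, averaged 110 ± 15.4 CPM in DIO and 82.3 ± 13.1 CPM in DIO+DHA (log2 fold change -0.40, SE 0.10, edgeR adjusted p = 0.00438). S100a10, which with annexin A2 binds plasminogen at the cell surface, rose from 252 ± 9.78 to 372 ± 37.7 CPM (log2 fold change 0.56, SE 0.08, edgeR adjusted p = 3.9e-08). Lman1, the receptor that exports factors V and VIII from the endoplasmic reticulum, rose from 95.5 ± 17.1 to 124 ± 13.3 CPM (log2 fold change 0.40, SE 0.10, edgeR adjusted p = 0.00327).

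Further marker lists are given by their sums. Monocyte and neutrophil markers summed to 36.6 to 40.6 CPM in DIO and 28.5 to 39.5 CPM in DIO+DHA, stellate cell and fibroblast markers to 340 to 347 and 299 to 319 CPM, cholangiocyte markers to 64.7 to 72.6 and 65.6 to 81.7 CPM, and erythroid markers to 1715 to 1821 and 1521 to 1803 CPM. Of the 10 stellate markers, 3 were lower (Lrat, Rgs5 and Colec11) and 1, Des, which muscle also expresses, was higher (log2 fold change 3.53, edgeR adjusted p = 2.3e-12). In the cholangiocyte list 1 marker was higher, and no monocyte, neutrophil or erythroid marker passed. The part of these cell types in the values of the clotting genes was not tested.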

How the data were processed

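RNA-seq of 8 livers, prepared with a 3′-enriched library protocol that carries molecular identifiers, was used. The deposited files hold raw counts per gene. According to the methods the authors trimmed reads, checked them with FastQC 0.11.8, aligned them to GRCm39 with STAR 2.7.9a and counted them with featureCounts 1.6.0 on GENCODE M33. Whether identifiers were collapsed and whether strand was used is not given in the sources used here. Names came from GENCODE M39 (56323 of 56884 identifiers). Genes with fewer than 5 counts in more than 50% of the libraries of every group were dropped. Counts were fitted with edgeR 4.0.16 (TMM, robust quasi-likelihood F test, common biological coefficient of variation 0.0801) in R 4.3.3, and p-values were adjusted by Benjamini-Hochberg over 12412 genes, of which 1883 passed 0.05. limma 3.58.1 and DESeq2 1.42.0 served as alternatives. CPM values are TMM-normalised. With 1 library per mouse, p-values measure the spread between mice. Mice shared cages, and the cage of each mouse was not known here, so a spread between cages could not be separated. The step was tested on simulated data. All 37 members are named, those that passed with every library; of the other pathway genes, those that passed are named. The members, gene lists and markers were chosen with earlier results of these data known, and the 6 motifs and the 250-base window after values were seen. The HNF1 motif was shortened by its last base after a first search, which matched the same number of members. Promoter sequence is printed for the fibrinogen genes alone. The hepatocyte marker Tf matched no row and was left out.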

Additional observations from a re-analysis of the deposited data

Results flagged for a closer look

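A single result stood apart in the test for a sample far from its group. Plg, the plasminogen gene, read 95.0 CPM in DIO+DHA replicate 6, against 164 to 184 CPM in the other 4 DIO+DHA livers. The gap to the nearest library was 0.774 of the whole range of the group, above Dixon's critical value of 0.71 for 5 samples. Of 32 members examined in this group, 1 was so marked, and chance marks about 1 in 20 groups. DIO replicate 5 was also the lowest of its group, at 107 CPM. Without DIO+DHA replicate 6 the log2 fold change of Plg was 0.31 (edgeR adjusted p = 0.0534), and without DIO replicate 5 it was -0.01.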

How the results depend on the processing

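Across 18 alternatives each, 36 genes (the 32 tested members and 4 other pathway genes that passed, the latter chosen after seeing the data) gave 641 results (some low-count members were dropped by stricter filters), of which 587 kept their direction and side of the threshold, 25 lost and 17 gained a call, and 12 changed sign. Fga, Fgb, Fgg, Serpina10 and Serpind1 passed under all 18. The number of lower members was 10, and fell to 6 at an adjusted p under 0.01. It fell to 5 with limma-voom at B above 0, the cutoff that the paper used for its differentially expressed genes. That cutoff dropped F7, Serping1, Cpb2, Vtn and F5. At an adjusted p under 0.1, 1 member was higher, F3, which passed the filter through the DIO+DHA group alone. No member was higher under any other setting run. Leaving out 1 library gave 7 (without DIO replicate 4) to 12 lower members (without DIO+DHA replicate 4), 0 higher, and a median of -0.21 to -0.18. F5 also lost its call without a filter (adjusted p = 0.0804) and with DESeq2 (adjusted p = 0.0939). Leaving out 1 library, F5 lost its call in 6 of 8 fits, Cpb2 in 3 (and without a filter, adjusted p = 0.0507), Vtn without DIO replicate 4 (adjusted p = 0.156) or 5 (adjusted p = 0.103) and with library size only (adjusted p = 0.0541), Serping1 without DIO replicate 4 (adjusted p = 0.128) and Lman1 without DIO replicate 5 (log2 fold change 0.25, adjusted p = 0.0924). Calls were gained by F2 in 6 alternatives, Proc in 5, Pros1 in 3, and by Thbd without DIO replicate 4 (-1.15, adjusted p = 0.0159). Without DIO replicate 5, however, Proc was -0.06 (edgeR adjusted p = 0.732) and Thbd -0.38 (edgeR adjusted p = 0.667), while Pros1 was -0.54 (edgeR adjusted p = 0.0211). Proz and Hrg passed only with scaling by library size alone.

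The 12 sign changes were in 6 members, Klkb1, F10, F12, Kng1, F13b and Plg, none of which passed the test. Klkb1 was -0.02 with library size only, 0.00 with the filterByExpr filter and -0.04 with the replicate block, and ranged from -0.06 to 0.08 when 1 library was left out. On leaving out 1 library F10 ranged from 0.00 to 0.06, F12 from -0.09 to 0.00, Kng1 from -0.06 to 0.01, F13b from -0.07 to 0.25 and Plg from -0.01 to 0.31. Replicate numbers 1, 4 and 5 occur in both groups. Same-numbered libraries did not deviate together (correlations -0.0133, -0.0135 and -0.0111), and pairs with unlike numbers gave -0.0593 to 0.0621. With so few libraries, this check gave no sign of pairing but cannot exclude a shared origin. The fit with the replicate block gave 9 lower members, without F5 (adjusted p = 0.0917). Replicates 2 and 6 occur only in DIO+DHA, so in this fit the comparison rests on the libraries numbered 1, 4 and 5. Members with few counts (F3, Thbd, Vwf, F8, Tfpi, Plaur) have standard errors of 0.27 to 0.57, which leaves moderate changes undetectable at this depth. The causes of these differences between settings were not tested.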

Other observations

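F13b, the carrier subunit of factor XIII, and Plg were low in the same livers. F13b was lowest in DIO replicate 5 (85.7 CPM) and DIO+DHA replicate 6 (88.7 CPM), and Plg was lowest in the same libraries (107 and 95.0 CPM). In the other 6 livers F13b lay between 102 and 129 CPM and Plg between 154 and 184 CPM. The pattern was noticed after values were seen and was not tested.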
